A study of Homo sapiens with 12 samples.

Results

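The genes described here are 46 genes of mitosis and the spindle checkpoint, out of 62082 gene identifiers in the deposited tables, chosen by name for their roles in cell division. They comprise 2 proliferation markers, 6 genes of CDK1, its cyclins and the CDC25 phosphatases, 5 genes of anaphase promotion and sister chromatid separation, 5 spindle checkpoint genes and 4 further mitotic kinases. The others are 4 genes of the chromosomal passenger complex, 5 of the centromere and kinetochore, 7 kinesin motors, 6 of spindle assembly and cytokinesis, and 2 transcription factors. All 46 were found by symbol, had a value in each of the 12 libraries and passed the filter on low counts in every fit. The lowest had 9 reads in 1 library, SGOL1 in a p53-deleted H-Ras library.

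The cells were MCF10A, a human breast epithelial cell line that does not form tumours, sequenced as 3 RNA libraries in each of 4 groups. The p53 wild-type cells carried either the pBabepuro vector or the mutant H-RasV12, expressed stably from a retrovirus. The p53-deleted cells, in which p53 had been targeted at exon 2, carried either the vector or H-RasV12. Each H-Ras line had as control the vector line made alongside it, and every group was grown in the same medium without treatment. Each group is 1 line, so whatever else sets the lines apart and an effect of H-Ras or of p53 cannot be told apart. Nothing in the labels says that the 3 libraries of a group came from separate cultures, so p-values measure the spread between libraries, which may be technical. The submitters deposited group means, and the reads of single libraries were solved from those means. The letters A, B and C order the libraries of a group by their size factor, the factor that adjusts for depth, with A the largest, and pair nothing across groups. Levels are normalized counts on a scale shared by the 12 libraries. Errors are SD for levels (n = 3 libraries) and SE for log2 fold changes, which are on the log2(value + 1) scale. Adjusted p-values are two-sided, from limma across all genes tested with Benjamini-Hochberg adjustment, and an adjusted p under 0.05 counts as called.

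In mitosis, CDK1 bound to a cyclin drives cells into division, the aurora and polo-like kinases build the spindle, and kinesins move chromosomes along its microtubules. The spindle checkpoint proteins sit at unattached kinetochores and hold back CDC20, the activator of the anaphase-promoting complex, until every chromosome is attached. The complex then marks securin and cyclin B for destruction, separase cuts cohesin, and the sisters part. Most of these genes are transcribed in G2 and M, when the MuvB complex acts with MYBL2 and FOXM1, and are held down in resting cells by the DREAM repressor complex.

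Estimated totals were 7859022 to 10072111 reads per library. HRAS was higher in both H-Ras lines: the means in the authors' deposited table were 859.9 in the vector line and 16949 in the H-Ras line of p53 wild-type cells, and 839.7 and 17779 in p53-deleted cells. CDKN1A, a p53 target that inhibits cyclin-dependent kinases, stood at 2109.7, 2329 and 2438 in the p53 wild-type vector libraries and 729.7, 836 and 868 in the p53-deleted ones. All 10 mammary epithelial markers were at 10 normalized counts or more in both vector lines, and 7 of 10 were in both H-Ras lines. KRT17 and TP63 were below 10 in both H-Ras lines, with CDH1 below 10 in the p53 wild-type line and KRT14 in the p53-deleted line. The fibroblast markers COL1A2 and COL3A1 were at 0 in every group, as were PECAM1 of endothelium and PTPRC and CD3E of leukocytes. Other members of these lists were detected. The fibroblast marker DCN had deposited means of 157 (vector) and 2990 (H-Ras) for the p53 wild-type lines. For the p53-deleted lines they were 11.2 (vector) and 506 (H-Ras). In the same order COL1A1, also a fibroblast marker, had 108, 36.5, 110 and 59.0. The endothelial marker KDR had 20.5, 107, 33.0 and 204. The 10 epithelial markers summed to 68305 and 17019.6 normalized counts in the vector and H-Ras lines of p53 wild-type cells and to 83504 and 17939 in those of p53-deleted cells. The summed level of 6 fibroblast markers was 268 and 3044 in the vector and H-Ras lines of p53 wild-type cells and 122 and 569 in those of p53-deleted cells. Over the groups 4 endothelial markers summed to 34.0 to 209, and 5 leukocyte markers to 77.6 to 436. CD14, a leukocyte marker, was detected in every library, at 844, 257 and 248 in the p53 wild-type vector libraries and 564, 500.2 and 149 with H-Ras. Its p53-deleted levels were 74.4, 45.9 and 96.6 with vector and 179, 330.0 and 296 with H-Ras. Their part in the results was not tested.

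H-Ras cells without p53 had lower levels of every one of the 46 genes than their vector line. All 46 were called lower in p53-deleted cells, where 28.4% of all genes tested were called lower and 27.8% higher. The median log2 fold change was -2.09, against 0.0051 over all genes tested, and the range ran from -3.12 for MYBL2 to -0.55 for CDC25B. In 45 of 46 genes the highest H-Ras library lay below the lowest vector library, compared with 31.9% of all genes with groups apart in that direction. CENPE was the exception. Fewer cells in division and less transcript per dividing cell cannot be told apart in bulk RNA.

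In p53 wild-type cells most of the 46 estimates were also below 0, but only 1 gene passed the test. CDC25B was called lower, 0 genes were called higher, and 5 had an unadjusted p under 0.05: AURKB, CDC25B, CDC25C, ESPL1 and MYBL2. Over all genes tested, 12.7% were called lower and 12.9% higher. The estimate was below 0 for 44 of 46 genes, CENPE and NUF2 being the others, with a median of -0.68 against -0.016 over all genes. CDC25B was also the 1 gene of 46 whose groups did not overlap, against 21.1% of all genes that were apart in the lower direction.

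**Figure D1:**
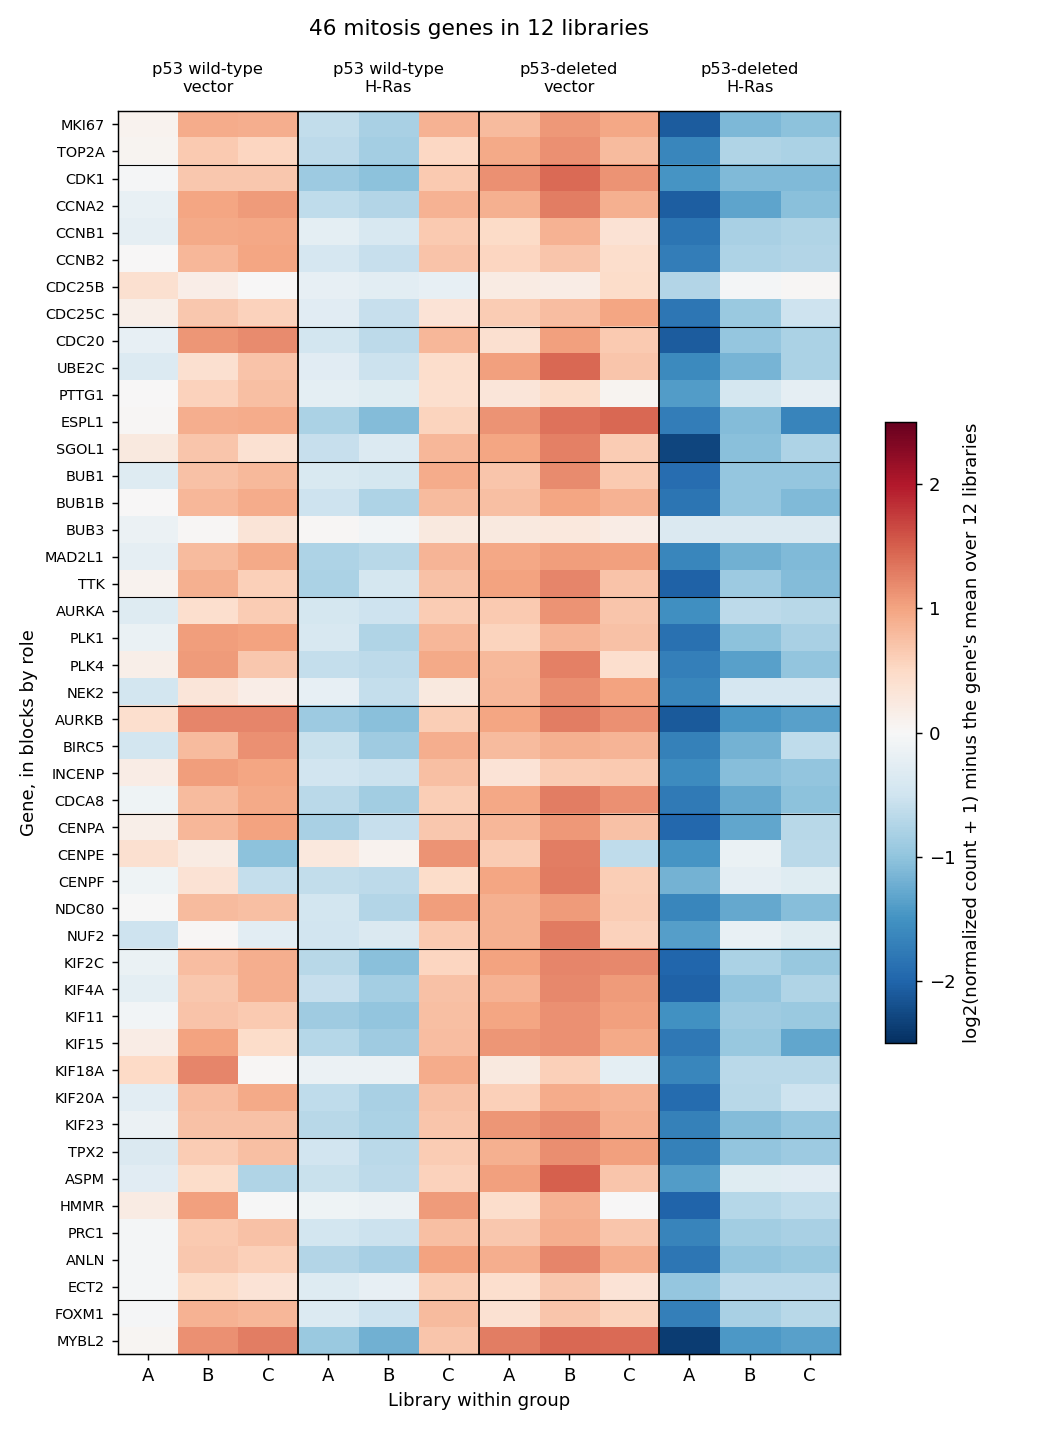
Heat map of the 46 genes (rows, by role) in 12 libraries (columns, by group); colour is the log2 level minus that gene's mean over the 12 libraries. The p53-deleted H-Ras columns are the lowest for most rows, library A of that group lowest of its 3 in 45 of 46, and p53 wild-type H-Ras library C looks like the vector columns.

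The p53 wild-type result depended on single libraries. Summed over the 46 genes, normalized counts came to 35059, 60247 and 59499 in the p53 wild-type vector libraries A, B and C. With H-Ras the sums were 26266, 23960.0 and 58046. H-Ras library C was thus at the level of the vector libraries, and vector library A lay between those and H-Ras libraries A and B. Library C was the highest of its 3 in 45 of 46 genes, by a median of 1.35 on the log2 scale over the mean of the other libraries of its group. It lay within the range of the vector libraries for 32 genes, above it for 13 and below it for 1. Vector library A was the lowest of its 3 in 40 genes, by a median of -0.80. H-Ras libraries A and B both lay below all 3 vector libraries in 40 of 46 genes. Library C was set aside for that count after its levels of these genes were seen. The matching share of all genes was not computed, so the count is a description.

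The p53-deleted libraries showed the same kind of spread without crossing. The summed normalized counts were 61714, 74626 and 62380.3 in the vector libraries and 12443, 21119 and 21939 in the H-Ras libraries. H-Ras library A was the lowest of its 3 in 45 genes, by a median of -0.90, and vector library B the highest in 42, by a median of 0.24. The median SD of a gene was 11.8% of its mean in the vector line and 33.3% in the H-Ras line of p53-deleted cells, against 31.2% and 59.0% in p53 wild-type cells. Across all genes the median deviation of any library from its group lay between -0.035 and 0.033. The size factors set that median near 0, so it cannot show whether the deviations of these 46 genes are unusual.

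Both libraries that stand apart were then left out of the p53 wild-type comparison. They were chosen with their levels of these genes known, so the outcome is a description. Without vector A and H-Ras C, 42 of 46 genes were called lower and 0 higher, with a median of -1.40. The shares of all genes called lower and higher were 29.4% and 28.4%. BUB3 was not called, at -0.22 ± 0.093 (adjusted p = 0.057). ASPM was at -0.48 ± 0.24 (adjusted p = 0.105). The kinetochore genes CENPE and NUF2 were at 0.57 and -0.32, with adjusted p of 0.074 and 0.0701. Over all alternatives the p53 wild-type adjusted p ranged from 0.057 to 0.98 for BUB3, 0.105 to 0.98 for ASPM, 0.074 to 0.74 for CENPE and 0.0701 to 0.94 for NUF2. With only H-Ras C left out 32 genes were called lower, and with only vector A left out the 1 call was AURKB. The share of all genes called in these fits is not given here. Genes with an unadjusted limma p under 0.05 were 5530 of 12229 without H-Ras C and 5065 of 12101 without vector A. With all libraries they were 4830 of 12453.

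**Figure D2:**
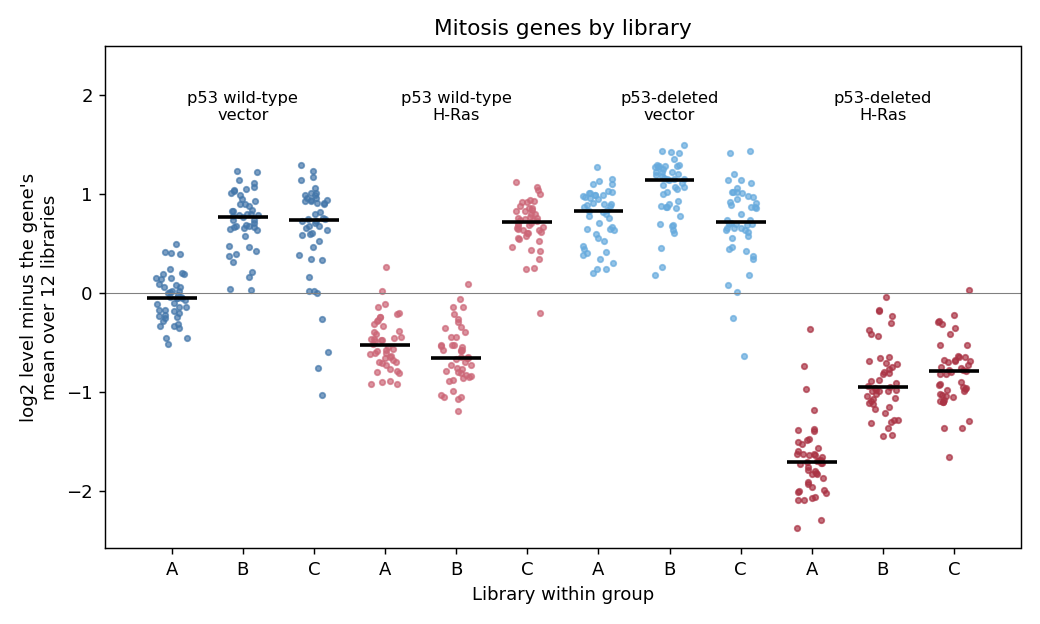
Level of the 46 genes in each library, as log2 of the gene's level minus its mean over the 12 libraries; each small point is a gene and the bar is the median. Medians are -0.05, 0.77 and 0.74 in the p53 wild-type vector libraries A, B and C, and -0.53, -0.66 and 0.72 in the H-Ras libraries, while the p53-deleted vector and H-Ras libraries lie at 0.72 to 1.14 and -1.71 to -0.79.

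The proximal promoters of these genes were searched for the short motifs through which cell-cycle complexes bind DNA. The CHR, bound by MuvB, was searched as TTTGAA or TTCGAA on both strands. The CCAAT box was searched as CCAAT on both strands, and E2F sites as TTTGGCGC, TTTCGCGC, TTTCCCGC or TTTGCCGC on both strands. RefSeq windows on GRCh38.p14 of 250 bases before to 50 after the start were found for 39 of the 46 genes, SGOL1 under its newer name SGO1, as 51 windows. No window was found for UBE2C, BUB3, TTK, AURKA, BIRC5, TPX2 or FOXM1. CHR letters occurred in 33 of the 51 windows, 64.7%, and in 16.4% of all 35116 windows. CCAAT occurred in 70.6% of the members' windows and 34.6% of all windows, and both motifs in 51.0% and 6.38%. The E2F letters occurred in 7.84% and 3.31%. A match is a description of the letters and does not show binding. Only these exact letters were counted, so sites with other letters would be missed.

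Windows of 160 bases, 130 before to 30 after the start, are printed for a few genes that the results turn on: separase ESPL1 and the cytokinesis kinesin KIF23, both called in the comparison of backgrounds, CCNB2 and PLK1 as central mitotic genes, and MYBL2, the gene with the largest decrease in p53-deleted cells. Capitals mark the CHR letters TTTGAA and the CCAAT box, read as ATTGG on the other strand. The printed windows are not a sample of the members, whose windows held both motifs in 51.0% of cases. Among other genes called between backgrounds, NEK2 had no CHR letters and NUF2 no CCAAT.
ESPL1 (chr12:53268169-53268328, plus strand): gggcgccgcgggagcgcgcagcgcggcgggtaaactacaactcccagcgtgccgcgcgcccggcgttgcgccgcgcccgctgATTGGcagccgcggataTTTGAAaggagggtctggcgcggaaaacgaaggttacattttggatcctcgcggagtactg
KIF23 (chr15:69414219-69414378, plus strand): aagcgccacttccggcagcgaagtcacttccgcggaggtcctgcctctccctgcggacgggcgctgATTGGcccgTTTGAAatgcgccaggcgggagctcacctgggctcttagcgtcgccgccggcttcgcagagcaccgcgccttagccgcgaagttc
CCNB2 (chr15:59105016-59105175, plus strand): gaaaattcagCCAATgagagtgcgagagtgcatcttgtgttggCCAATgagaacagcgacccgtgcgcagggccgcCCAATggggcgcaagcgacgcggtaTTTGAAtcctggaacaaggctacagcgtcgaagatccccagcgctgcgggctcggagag
PLK1 (chr16:23678759-23678918, plus strand): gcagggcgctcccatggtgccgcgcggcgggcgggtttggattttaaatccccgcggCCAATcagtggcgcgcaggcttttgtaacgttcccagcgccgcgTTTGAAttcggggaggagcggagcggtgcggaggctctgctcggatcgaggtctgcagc
MYBL2 (chr20:43666984-43667143, plus strand): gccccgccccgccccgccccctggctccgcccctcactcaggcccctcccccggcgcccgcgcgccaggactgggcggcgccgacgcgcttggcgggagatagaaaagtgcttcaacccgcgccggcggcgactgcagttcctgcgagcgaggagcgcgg
ESPL1 and KIF23 hold 1 inverted CCAAT box and 1 CHR each, CCNB2 holds 3 CCAAT boxes before its CHR, and PLK1 holds 1 of each. The MYBL2 window holds 0 matches to any of the letters searched, which does not show that it lacks an E2F site with other letters. Genes with CHR letters in a window had a median log2 fold change of -2.16 in p53-deleted cells (30 genes), and those without had -1.87 (9 genes). In p53 wild-type cells the medians were -0.72 and -0.74. These splits are given as descriptions.

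Both proliferation markers were called lower with H-Ras in p53-deleted cells and neither in p53 wild-type cells. Beside this and the role groups that follow, 28.4% of all genes were called lower in p53-deleted and 12.7% in p53 wild-type cells. MKI67, the Ki-67 antigen that coats mitotic chromosomes, had 3383, 6014 and 5938 normalized counts in p53 wild-type vector libraries A, B and C, and 2082, 1818 and 5815 in the H-Ras libraries. Its p53-deleted counts were 5451, 6679.9 and 6209 with vector and 754, 1460.0 and 1556 with H-Ras. The p53-deleted groups were far apart, while p53 wild-type H-Ras C sat inside the vector range. The log2 fold change was -2.36 ± 0.22 (adjusted p = 4.2e-06) in p53-deleted and -0.83 ± 0.45 (adjusted p = 0.22) in p53 wild-type cells. TOP2A, the topoisomerase that untangles sister chromatids, was called lower at -2.03 in p53-deleted cells and had an estimate of -0.75 in p53 wild-type cells.

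All 6 genes of CDK1, its cyclins and its activating phosphatases were called lower in p53-deleted cells, and 1 of 6 in p53 wild-type cells. CCNB1, the cyclin that carries CDK1 into mitosis, had 1570.1, 3558 and 3601 in the p53 wild-type vector libraries and 1554, 1402 and 2912 in the H-Ras libraries. With p53 deleted it had 2573, 3361 and 2386 with vector and 518, 1049 and 1094 with H-Ras. Vector A was close to H-Ras A, and H-Ras C was nearer to vector B and C. Its log2 fold change was -1.72 ± 0.24 (adjusted p = 1.0e-04) in p53-deleted and -0.57 ± 0.39 (adjusted p = 0.32) in p53 wild-type cells. CCNA2, the cyclin of S phase and early mitosis, and CDK1 itself had the largest decreases of the 6, -2.51 and -2.47. CCNB2 and CDC25C were at -1.64 and -1.91.

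CDC25B, the phosphatase that starts CDK1 activation before mitosis, was singled out after its values were seen. It had 1814, 1531 and 1388 in p53 wild-type vector libraries and 1190.3, 1141 and 1189.6 with H-Ras. Its p53-deleted levels were 1577, 1558 and 1895 with vector and 824, 1335 and 1403 with H-Ras. Vector A was its highest p53 wild-type library, H-Ras C was level with H-Ras A and B, and in p53-deleted cells H-Ras A was far below the others. The log2 fold change was -0.43 ± 0.12 (adjusted p = 0.034) with p53 and -0.55 ± 0.17 (adjusted p = 0.018) without it, the smallest decrease of the 46 genes in p53-deleted cells. The p53 wild-type call was lost when vector A, vector B, H-Ras A or H-Ras B was left out and when 12 libraries were fitted together, and also without the trend and with a correction for GC. The adjusted p in p53-deleted cells was 0.064 without vector C, and ranged from 0.0081 to 0.0698 over the alternatives.

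Genes of anaphase were called lower in 5 of 5 cases in p53-deleted cells and in 0 of 5 in p53 wild-type cells. CDC20 had 921, 2295 and 2395 in p53 wild-type vector libraries and 771, 672 and 1889 in H-Ras libraries. In p53-deleted cells it had 1401, 2159 and 1678 with vector and 249, 539 and 610.5 with H-Ras. The p53-deleted groups were apart, and in p53 wild-type cells vector A lay just above H-Ras A and B. The fit gave -1.998 ± 0.28 (adjusted p = 9.7e-05) in p53-deleted cells and -0.80 ± 0.49 (adjusted p = 0.27) in p53 wild-type cells. ESPL1, the separase protease, and SGOL1, the shugoshin that shields centromeric cohesin, were at -2.81 and -2.36 in p53-deleted cells. UBE2C, the ubiquitin-conjugating enzyme of the anaphase-promoting complex, was at -2.25. PTTG1, securin, the inhibitor of separase, had the smallest decrease of the 5, -0.98 ± 0.24 (adjusted p = 0.0046). Near-identical copies could share reads with some of these genes, but PTTG2, PTTG3P and CDC20P1 were listed at 0 and UBE2CP2 at no more than 1.63 normalized counts in any group mean.

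The 5 spindle checkpoint genes were all called lower in p53-deleted cells, 4 of them by more than 2 on the log2 scale. MAD2L1, the MAD2 protein that binds CDC20, had 530.4, 1076 and 1187 in p53 wild-type vector libraries and 362, 379 and 1118 with H-Ras. Without p53 it had 1208, 1281 and 1251 with vector and 199, 266 and 286 with H-Ras. Vector libraries of the p53-deleted line agreed closely and lay above every other library. H-Ras minus vector came to -2.34 ± 0.12 (adjusted p = 5.3e-08) on the log2 scale without p53 and to -0.73 ± 0.49 (adjusted p = 0.31) with it. The checkpoint kinases BUB1 and TTK and the pseudokinase BUB1B were at -2.14, -2.33 and -2.19 in p53-deleted cells.

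BUB3, which brings BUB1 and BUB1B to kinetochores, had the smallest decrease of the 5. Its levels were 1843, 2073 and 2558 in p53 wild-type vector libraries and 2065, 1952 and 2409 in H-Ras libraries, which overlapped. In p53-deleted cells they were 2411, 2438 and 2311 with vector and 1577, 1576 and 1588 with H-Ras. The 3 H-Ras libraries were nearly equal there, library A included. The log2 fold change was -0.61 ± 0.071 (adjusted p = 2.7e-05), a ratio of 1.53 between the groups. In p53 wild-type cells it was -0.016 ± 0.15 (adjusted p = 0.95), with a 95% interval of -0.36 to 0.33.

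**Figure D3:**
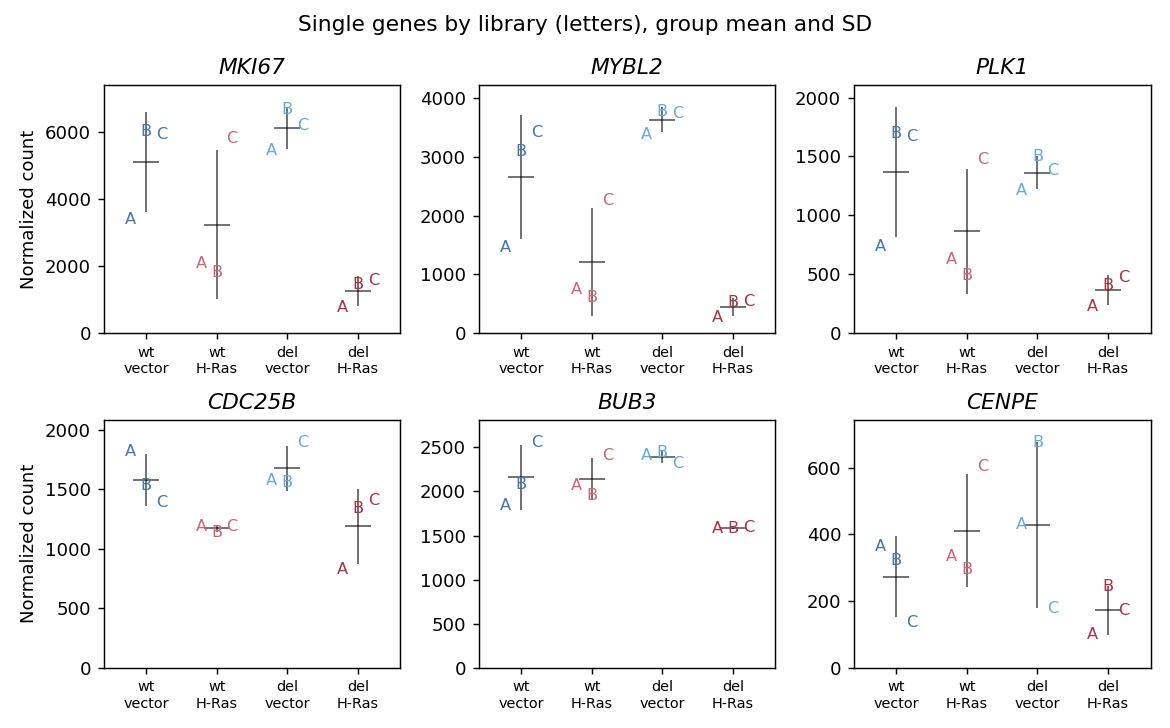
Normalized counts of MKI67, MYBL2, PLK1, CDC25B, BUB3 and CENPE in each of the 12 libraries (letters), with the group mean and SD (n = 3); wt and del stand for p53 wild-type and p53-deleted. For BUB3 the p53-deleted H-Ras libraries lie at 1577, 1576 and 1588, close together, while for MKI67 and PLK1 the p53 wild-type H-Ras library C is level with vector libraries.

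The 4 mitotic kinases outside the checkpoint were also all called lower in p53-deleted cells and in no case in p53 wild-type cells. AURKA, the kinase of centrosomes and spindle poles, had 798, 1329 and 1538 in p53 wild-type vector libraries and 728, 689 and 1547 in the H-Ras ones. Its p53-deleted libraries had 1556, 2149 and 1609.5 with vector and 343, 632 and 617 with H-Ras. H-Ras C of the p53 wild-type cells was above all 3 of its vector libraries. On the log2 scale the change was -1.79 ± 0.21 (adjusted p = 2.4e-05) with p53 deleted, and the p53 wild-type estimate was -0.37 ± 0.36 (adjusted p = 0.49). PLK1, the polo-like kinase that acts from centrosome maturation to cytokinesis, had 733, 1699 and 1669 in p53 wild-type vector libraries and 628, 487 and 1474 with H-Ras. With p53 deleted its levels were 1214, 1498 and 1377 with vector and 226, 406 and 468 with H-Ras. The p53-deleted groups were separate and the p53 wild-type groups overlapped. The limma fit put the p53-deleted log2 change at -1.97 ± 0.21 (adjusted p = 1.5e-05) and the p53 wild-type one at -0.75 ± 0.47 (adjusted p = 0.28). PLK4, which starts centriole duplication, and NEK2, which splits centrosomes, were at -2.20 and -1.84 in p53-deleted cells.

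The chromosomal passenger complex, which corrects faulty attachments and later guides cytokinesis, was called lower in 4 of 4 genes in p53-deleted cells. INCENP, its scaffold, had 875, 1588 and 1521 in p53 wild-type vector libraries and 547, 529.7 and 1283 with H-Ras. With p53 deleted it had 968, 1186 and 1206 with vector and 258, 365 and 387 with H-Ras. Its p53-deleted vector level was below that of p53 wild-type vector B and C. The fit gave -1.76 ± 0.15 (adjusted p = 1.8e-06) in p53-deleted cells and -0.85 ± 0.38 (adjusted p = 0.15) in p53 wild-type cells. AURKB, the kinase of the complex, had the lowest estimate of all 46 genes in p53 wild-type cells, -1.42 ± 0.46 (adjusted p = 0.059), and -2.79 in p53-deleted cells. CDCA8, borealin, and BIRC5, survivin, were at -2.495 and -2.03 in p53-deleted cells.

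Centromere and kinetochore genes had the smallest median decrease of the role groups in p53-deleted cells, -1.55, although 5 of 5 were called. CENPF, a large kinetochore protein of G2 and mitosis, had 1320.1, 1850.0 and 942 in p53 wild-type vector libraries and 929.8, 911 and 1972 with H-Ras. In p53-deleted cells it had 2817, 3500.0 and 2191 with vector and 628, 1219 and 1153 with H-Ras. Here vector C was the lowest vector library in both backgrounds. H-Ras minus vector came to -1.55 ± 0.23 (adjusted p = 1.6e-04) on the log2 scale without p53 and to -0.17 ± 0.35 (adjusted p = 0.76) with it. CENPA, the histone variant of centromeres, and NDC80, which binds microtubules, were at -2.22 and -2.21 in p53-deleted cells. NUF2, the partner of NDC80, was at -1.55.

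CENPE, the kinesin-like motor that carries chromosomes to the spindle equator, was singled out after its values were seen, as the 1 gene with overlapping p53-deleted groups. Its levels were 363, 321 and 135 in p53 wild-type vector libraries and 333, 296 and 605 with H-Ras. In p53-deleted cells they were 430.2, 675 and 177 with vector and 98.8, 245 and 172 with H-Ras. The vector C libraries were low in both backgrounds, and p53-deleted vector C lay among the H-Ras libraries. The log2 fold change was -1.22 ± 0.42 (adjusted p = 0.028) in p53-deleted cells, with an adjusted p of 0.091 to 0.098 without vector A, vector B or H-Ras A and a range of 0.0012 to 0.098 over the alternatives. In p53 wild-type cells it was 0.62 ± 0.42 (adjusted p = 0.31).

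The 7 kinesin motors were all called lower in p53-deleted cells and 0 of 7 in p53 wild-type cells. KIF20A, a motor of the central spindle, had 855, 1738 and 1981 in p53 wild-type vector libraries and 657, 583 and 1693 in the H-Ras libraries. Without p53 it had 1545, 1952 and 1869.8 with vector and 268, 627 and 711 with H-Ras. The p53 wild-type range was wide in both groups. On the log2 scale the change was -1.87 ± 0.28 (adjusted p = 1.9e-04) with p53 deleted, and the p53 wild-type estimate was -0.74 ± 0.47 (adjusted p = 0.28). KIF15 and KIF11, which push spindle poles apart, were at -2.43 and -2.17 in p53-deleted cells. KIF2C, which takes microtubule ends apart, KIF23 and the chromosome-bound KIF4A were at -2.41, -2.33 and -2.31. KIF18A, which limits chromosome oscillation, had the smallest decrease of the 7, -1.21 ± 0.27 (adjusted p = 0.0027). KIF4B, a near-identical copy of KIF4A, was at no more than 0.977 normalized counts in any group mean.

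Of the spindle assembly and cytokinesis genes, 6 of 6 were called lower in p53-deleted cells and 0 of 6 in p53 wild-type cells. TPX2, which activates AURKA on spindle microtubules, had 2082, 4125 and 4472 in p53 wild-type vector libraries and 1919, 1679.6 and 4142 with H-Ras. Its p53-deleted libraries had 4920.4, 5929.6 and 5412 with vector and 821, 1338 and 1423 with H-Ras. Every p53-deleted vector library was above every other library. The limma fit put the p53-deleted log2 change at -2.23 ± 0.17 (adjusted p = 9.9e-07) and the p53 wild-type one at -0.52 ± 0.41 (adjusted p = 0.38). ANLN, the anillin of the contractile ring, and PRC1, which bundles midzone microtubules, were at -2.27 and -1.89 in p53-deleted cells. ASPM and HMMR, both at spindle poles, were at -1.74 and -1.57. ECT2, the exchange factor that turns on RhoA for furrowing, was at -1.25.

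Both transcription factors that drive this programme were among the genes called lower in p53-deleted cells. MYBL2 had 1456, 3095 and 3418 in p53 wild-type vector libraries and 737, 611 and 2259 with H-Ras. With p53 deleted it had 3387, 3763 and 3737 with vector and 268, 517 and 542 with H-Ras. H-Ras A was again the lowest p53-deleted library and H-Ras C the highest p53 wild-type H-Ras library. Its log2 fold change was -3.12 ± 0.21 (adjusted p = 3.3e-07), a ratio of 8.67 between the groups, with p53 deleted, and -1.32 ± 0.53 (adjusted p = 0.11) in p53 wild-type cells. FOXM1 had 801, 1509.9 and 1452 in p53 wild-type vector libraries and 651, 570.4 and 1423 with H-Ras. In p53-deleted cells it had 1075, 1328 and 1205 with vector and 249, 467 and 506 with H-Ras. Its p53-deleted vector libraries lay within the p53 wild-type vector range. The fit gave -1.64 ± 0.21 (adjusted p = 6.4e-05) in p53-deleted cells and -0.59 ± 0.39 (adjusted p = 0.301) in p53 wild-type cells.

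The authors' deposited table gave a similar count for p53-deleted cells. By its adjusted p, 44 of the 46 genes were lower, all but CDC25B and CENPE, where 13.2% of its genes with a value were lower. In the authors' deposited table for p53 wild-type cells 0 of 46 had an adjusted p under 0.05, the lowest being 0.116, and 4.62% of its genes were lower.

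**Figure D4:**
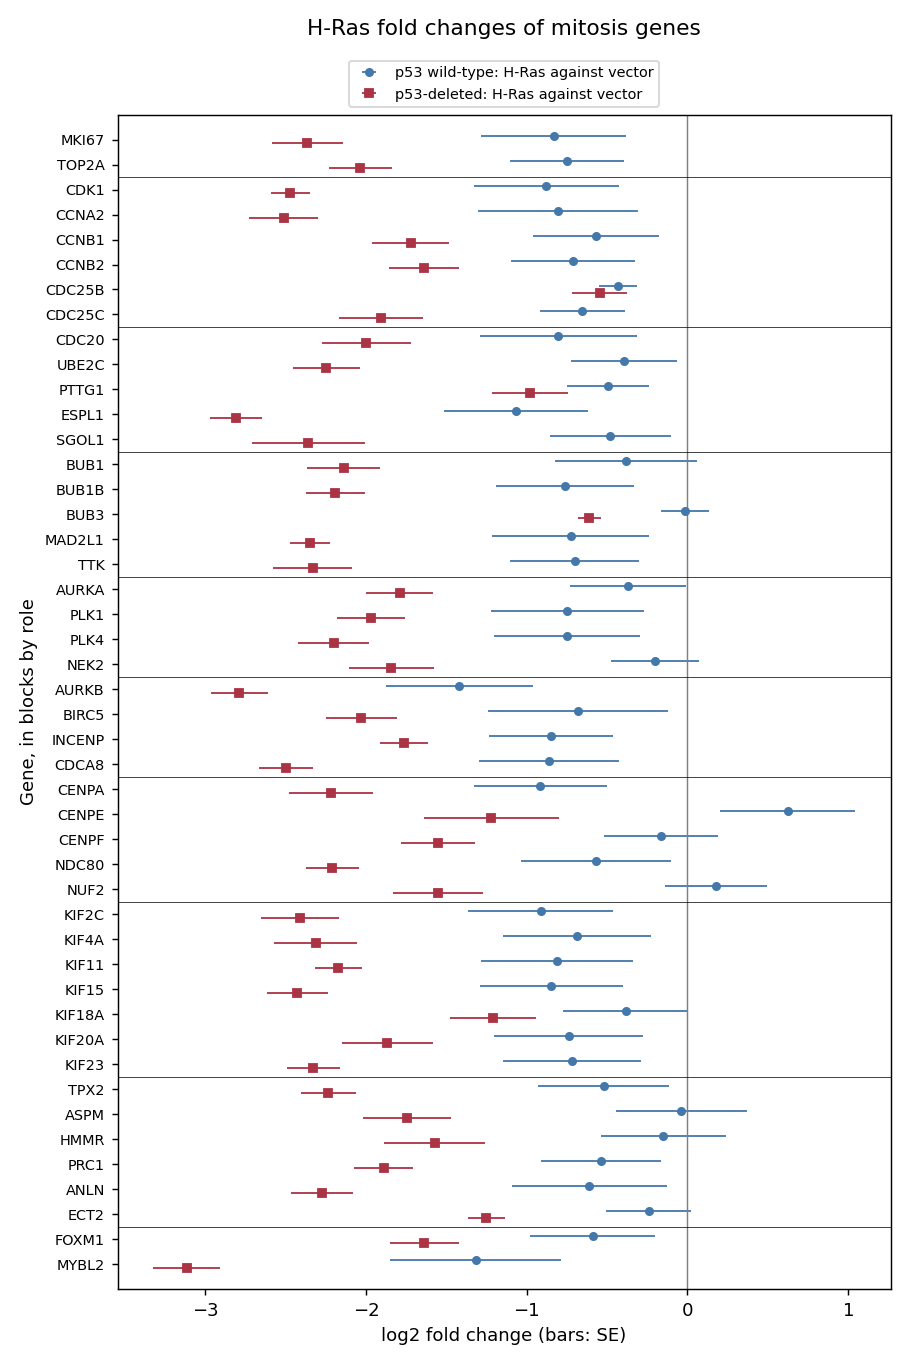
Log2 fold change of each of the 46 genes, H-Ras minus vector, in p53-deleted cells (squares) and p53 wild-type cells (circles). Bars are the SE, and called genes are not marked. Every p53-deleted estimate is at or below -0.55, and p53 wild-type estimates run from -1.42 to 0.62, where only CDC25B was called.

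The difference between the H-Ras responses was below 0 for all 46 genes, that is, each estimate was lower in p53-deleted cells. It was called for 12 genes, where 7.92% of all genes were called in that direction and 9.27% in the other, and 36 genes had an unadjusted p under 0.05. The median difference was -1.44 on the log2 scale. The 12 were UBE2C, NEK2, BUB3, NUF2, TPX2, ESPL1, ECT2, SGOL1, CDCA8, KIF23, CDK1 and BUB1. UBE2C had the lowest p, at -1.85 ± 0.44 (adjusted p = 0.013), and SGOL1 the largest difference, at -1.88 ± 0.58 (adjusted p = 0.044). BUB3 was at -0.59 ± 0.17 (adjusted p = 0.028). The difference draws on the p53 wild-type libraries already described. Without vector A and H-Ras C of that background, the median was -0.74 and 13 genes were called, against 11.3% of all genes in that direction and 11% in the other, with estimates below 0 for all 46. Most of the 12 calls ended when 1 library was left out: 10 were lost without p53 wild-type vector A, and 10, 11 and 10 without p53-deleted vector A, vector B and H-Ras A. Without the trend 10 were lost.

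**Figure D5:**
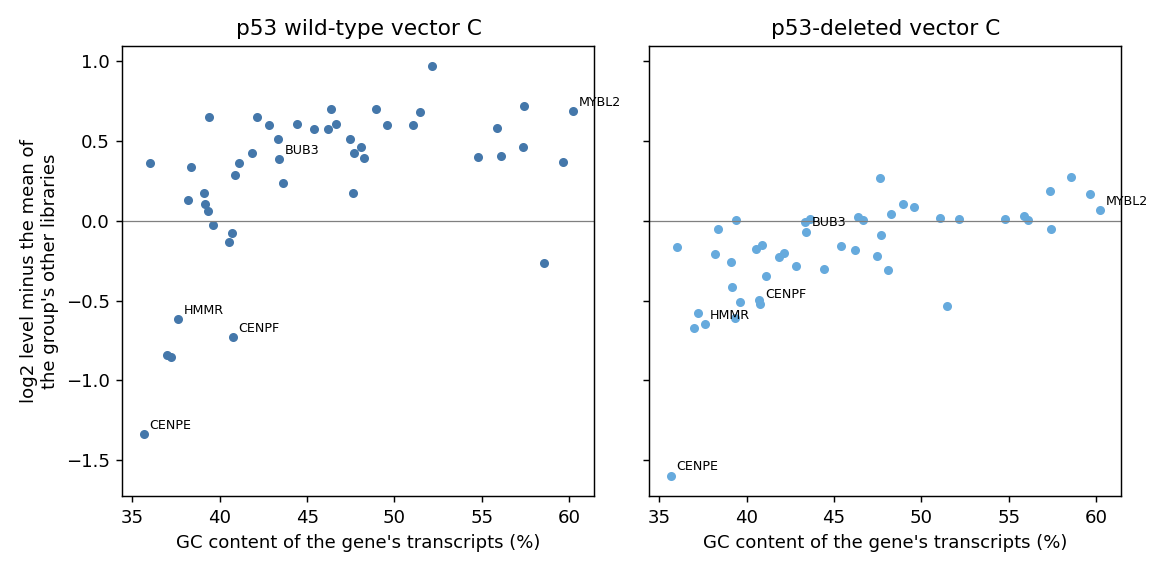
Deviation of each gene in library C of the vector lines from the other libraries of its group (log2, vertical axis) against the GC content of its protein-coding transcripts in percent (horizontal axis), in p53 wild-type and p53-deleted cells. CENPE, with the lowest GC, lies lowest in both; Spearman's rho is 0.61 in p53 wild-type and 0.71 in p53-deleted cells.

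GC content of the transcript moved with some of the spread between libraries. Over the 46 genes, Spearman's rho between GC and the deviation of vector library C from its group was 0.61 in p53 wild-type and 0.71 in p53-deleted cells, compared with 0.093 and 0.52 over all genes at 50 normalized counts or more. It was -0.55 for p53 wild-type vector A and -0.65 and -0.50 for p53-deleted vector A and B. The points share libraries and a scale, so these are descriptions. CENPE, KIF18A, ASPM, HMMR and CENPF, with GC of 35.7% to 40.7%, were low in both vector C libraries. CDK1, with GC of 36.0%, deviated by 0.37 and -0.16 there. MAD2L1 (39.4%) deviated by 0.65 and 0.0077, and KIF11 (38.3%) by 0.34 and -0.051. Members in that range of GC were thus not uniformly low in vector C. With a correction for GC, 46 of 46 genes were called lower in p53-deleted cells, 0 in p53 wild-type cells and 6 in the difference, a setting chosen after seeing the data. Under it 4 genes were called higher in the p53-deleted vector line, and 26 lower in the p53-deleted H-Ras line, where 4 of the 29 calls were lost. The share of all genes called with this correction is not given here.

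Few of the 46 genes were called between the vector lines. The p53-deleted line was called higher in 4 and lower in 0, where 16.2% of all genes were called higher and 16.8% lower. They were ASPM at 1.26 ± 0.39 (adjusted p = 0.026), NUF2 at 1.16 ± 0.34 (adjusted p = 0.0198), CENPF at 1.08 ± 0.34 (adjusted p = 0.027) and NEK2 at 1.00 ± 0.31 (adjusted p = 0.027). The median log2 difference was 0.42. In 15 genes the p53-deleted libraries lay above all p53 wild-type ones, against 22.1% of all genes. The count was 0 without p53 wild-type vector A or without p53-deleted vector A or B. Without p53 wild-type vector A and H-Ras C, 5 were called higher and 1, INCENP, lower, against 20.6% and 20.4% of all genes. The vector libraries are those of the H-Ras comparisons.

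Between the H-Ras lines, 29 of 46 genes were called lower in the p53-deleted line and 0 higher, where 18.2% of all genes were called lower and 19.1% higher. The median log2 difference was -1.05, and in 31 genes the groups did not overlap, against 26.6% of all genes. HMMR was at -1.39 ± 0.41 (adjusted p = 0.018) and SGOL1 at -1.34 ± 0.41 (adjusted p = 0.021), the largest differences. CDC25B had the smallest difference, at -0.022 ± 0.17 (adjusted p = 0.94). The count rested on single libraries at both ends: 4 genes were called without p53 wild-type H-Ras C, and 1, BUB3, without p53-deleted H-Ras A. It was 18 without p53-deleted H-Ras B, and 23 without p53 wild-type vector A and H-Ras C, against 22% of all genes called lower and 21.3% higher.

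By group mean, 45 of 46 genes were lowest in the p53-deleted H-Ras line, CDC25B being the exception. In 38 genes the p53-deleted vector line was highest and in the other 8 the p53 wild-type vector line. In 34 genes the falling order was vector without p53, vector with p53, H-Ras with p53 and H-Ras without p53. Of these steps, the first was called for 4 of 46 genes, the second for 1 and the last for 29, as given above. H-Ras libraries A and B of p53 wild-type cells lay above all p53-deleted H-Ras libraries in 31 genes. That count leaves out library C, whose levels had been seen, and the matching share of all genes was not computed.

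Other genes of the same machinery, from lists made for this account, were mostly called lower in p53-deleted cells too. There 28.4% of all genes tested were called lower and 27.8% higher. Of 23 other kinetochore genes, 21 were called lower and 0 higher, led by DSN1 (-2.82), a subunit of the MIS12 complex, and by SKA1 (-2.80) and SKA3 (-2.68), which tie kinetochores to shrinking microtubules. Of 17 condensin and cohesin genes, 16 were called lower, led by CDCA5 (-2.82), sororin, and the condensin subunits NCAPH (-2.67) and NCAPG (-2.34). Of 19 other spindle and cytokinesis genes, 16 were called lower and 1 higher, led by KIFC1 (-2.47), KIF18B (-2.33) and CKAP2L (-2.16). The list medians were -2.02, -1.45 and -1.96.

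The enzymes and repressors around the programme had smaller median changes. Of 15 subunits and regulators of the anaphase-promoting complex, 10 were called lower and 1 higher in p53-deleted cells, with a median of -0.33. The shares of all genes there were 28.4% lower and 27.8% higher. FBXO5, the EMI1 inhibitor of the complex, was at -1.72, and the subunits CDC23 and ANAPC1 were at -1.03 and -0.62. Of 11 DREAM and MuvB genes, 6 were called lower and 1 higher, with a median of -0.47. RBL1, the p107 pocket protein, was at -2.19, and LIN9 and LIN54 of MuvB were at -1.62 and -1.34.

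In p53 wild-type cells the calls on these lists stand beside 12.7% of all genes called lower and 12.9% called higher. OIP5, which loads CENPA, was the 1 other kinetochore gene called lower (-1.24), and 0 condensin, cohesin, DREAM or MuvB genes were called. Among subunits of the anaphase-promoting complex 3 were called higher, ANAPC13 (0.59), CDC27 (0.47) and CDC16 (0.34), as were KIF5B (0.55) and KIF3B (0.37), kinesins of cargo transport. Without vector A and H-Ras C, 21 of 23 other kinetochore, 14 of 17 condensin and cohesin and 15 of 19 other spindle genes were called lower, with 3 of the other spindle genes called higher. The anaphase-promoting complex list then had 6 of 15 lower and 3 higher, and the DREAM and MuvB list 4 of 11 lower, against 29.4% of all genes lower and 28.4% higher. The difference between the H-Ras responses was called for 6 of 23 other kinetochore, 3 of 17 condensin and cohesin and 6 of 19 other spindle genes, 2 of 15 genes of the anaphase-promoting complex list and 1 of 11 DREAM and MuvB genes. All had the lower log2 fold change in p53-deleted cells, and 7.92% of all genes were called in that direction.

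CDKN1A, given beside the mitotic genes, rose with H-Ras in both backgrounds. It stood at 4427, 4235 and 3542 in the p53 wild-type H-Ras libraries and 2587, 2095 and 2082 in the p53-deleted ones, with vector levels as given above. H-Ras C had the lowest value of its p53 wild-type group and H-Ras A the highest of the p53-deleted group. These libraries had the highest and the lowest levels of the mitotic genes in their groups. The vector groups did not show this opposite order. In each of them library A had the lowest CDKN1A value and also the lowest summed level of the 46 genes. With p53 the log2 fold change was 0.81 ± 0.12 (adjusted p = 0.0023), and without it 1.45 ± 0.11 (adjusted p = 5.8e-07). Its part in the levels of the 46 genes was not tested.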

How the data were processed

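Poly(A) RNA of 12 libraries, 3 per group, was sequenced. Per the submitters' processing notes, reads were handled with Trimmomatic, FastQC, TopHat, HTSeq and SAMtools on GRCh37. Not given in the sources used here are versions, annotation, strand setting and testing tool. For each p53 background the authors deposited a table, which per the file headers holds a mean per group, a fold change (a ratio of means) and p-values. The deposited signal was found from the values to be counts divided by size factors. A number in the column headers of the p53 wild-type table differs from that in the table's name.

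Whole reads of 3 libraries per group were solved from means printed to 15 digits. Every split was searched for means up to 8000, which covers all 46 genes, and larger means within 0.2 to 2.5 times the mean or narrower. For 99.8% to 100.0% of genes above 0 the solution was unique. Of 1000 shifted means per group 0 were solved, and simulated means were solved with 0 errors. Library values therefore rest on solved reads, and letters cannot be matched to replicate numbers.

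R 4.3.3 with limma 3.58.1 fitted log2(value + 1) with a trend, after a filter of 10 normalized counts in 3 or more libraries. The fits and the difference between backgrounds used size factors of each table, and the vector and H-Ras contrasts used factors over 12 libraries. The planned test on counts was not run, since raw counts per library were not given. Scripts were tested on simulated data. Alternatives covered the scaling, filter, pseudocount (5), trend, 12-library fit, and leaving out each library or p53 wild-type vector A and H-Ras C together. The GC correction (10 bins, from protein-coding GENCODE transcripts matched by Ensembl ID) was added after seeing the data. Library values are printed for the gene with the highest mean in each role, FOXM1, MAD2L1 and PLK1; CDC25B and CENPE were added after their values were seen. The members and lists were chosen with earlier results of these data known. Python 3.11.15, NumPy 2.4.6 and Matplotlib 3.10.9 were used.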

Additional observations from a re-analysis of the deposited data

Results flagged for a closer look

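The difference between the H-Ras log2 fold changes, p53-deleted minus p53 wild-type, passed the interaction test (limma, adjusted p under 0.05) for 12 of the 46 genes. Each had the lower log2 fold change in p53-deleted cells. In p53 wild-type cells the estimate was above 0 for NUF2 (0.18) and near 0 for BUB3 (-0.016). The differences were -1.88 for SGOL1, -1.85 for UBE2C, -1.76 for BUB1 and -1.74 for ESPL1. They were -1.73 for NUF2, -1.71 for TPX2, -1.64 for NEK2 and -1.63 for CDCA8. The remaining ones were -1.61 for KIF23, -1.59 for CDK1, -1.01 for ECT2 and -0.59 for BUB3. Of these calls 10 were lost without p53 wild-type vector A, 10 without p53-deleted vector A, 11 without p53-deleted vector B, 10 without p53-deleted H-Ras A and 10 without the trend. Without p53 wild-type vector A and H-Ras C together, 10 of these 12 were called, SGOL1 and BUB1 being the exceptions, together with ANLN, NDC80 and MAD2L1.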

How the results depend on the processing

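No paired analysis was possible because the solved libraries carry no replicate numbers. In p53-deleted cells 44 to 46 of the 46 genes were called lower under every alternative. CDC25B and CENPE were lost without the trend, CENPE in the fit of 12 libraries, and 45 to 46 were called with 1 library left out. In p53 wild-type cells 0 were called lower without the trend, 0 with the GC correction, 3 in a fit of 12 libraries (AURKB, MYBL2 and ESPL1) and 42 with H-Ras C and vector A both left out; with 1 library left out the count was 0 to 32, with 0 without vector B, H-Ras A or H-Ras B and 32 without H-Ras C. The difference between backgrounds was called for 7 genes without the filter, 6 with scaling to library totals, 2 without the trend, 6 with the GC correction, and 1 to 27 with 1 library left out. It was called for 2 genes without p53 wild-type vector A, 27 without H-Ras B, 2, 1 and 5 without p53-deleted vector A, B and C, and 2, 5 and 6 without H-Ras A, B and C. Between vector lines 0 to 4 genes were called higher with 1 library left out, and without both libraries 1 was called lower, INCENP. Between H-Ras lines 18 were called lower without the trend, and 1 to 36 with 1 library left out. The cause of these changes was not tested. Apart from the setting without both libraries, the share of all genes called under each alternative is not given here. These counts stand without it. No single-gene estimate that was called changed sign under any alternative run. Leaving out a library leaves 2 in a group, so fewer samples carry the test. Library levels rest on solved reads, and SGOL1, with 9 reads in its lowest library, is the least precisely counted of the 46 genes. The planned test on counts was not run.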

Other observations

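The lists of related machinery were also compared between the vector lines and between the H-Ras lines. In the p53-deleted line 2 of 23 other kinetochore, 2 of 17 condensin and cohesin, 3 of 15 anaphase-promoting complex, 2 of 19 other spindle and 2 of 11 DREAM and MuvB genes were called higher and 0 lower, against 16.2% and 16.8% of all genes. CDC16 of the anaphase-promoting complex was higher in the p53-deleted line by 0.96 on the log2 scale, the kinetochore subunit PMF1 by 1.23, the spindle protein CKAP2 by 1.00 and the cohesin regulator PDS5B by 0.87. Between the H-Ras lines, 14 of 23, 8 of 17, 4 of 15, 5 of 19 and 1 of 11 genes of these lists were called lower in the p53-deleted line, and 0, 1, 3, 0 and 2 higher, against 18.2% and 19.1% of all genes. The p53-deleted line was lower in CENPK (-1.51) and OIP5 (-1.48), both of the kinetochore, CDCA5 (-1.49) of cohesin and CKAP2L (-1.29) of the spindle, and higher in E2F5 (0.69), a repressive E2F factor. Each named gene had a limma adjusted p under 0.05, and both comparisons share libraries with those above.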
